A study of Caenorhabditis elegans with 32 samples.

Results

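Worms signal between cells with peptides cut from larger precursor proteins, and the genes for 127 such precursors were followed here: FMRFamide-like peptide genes (flp), neuropeptide-like protein genes (nlp) and insulin-like peptide genes (ins, with daf-28). They were picked by gene name, with a floor of 50 counts summed over the 8 libraries of whole-worm total RNA. Of 141 genes with such names among the 46748 genes of the table, 30 of 31 flp, 66 of 71 nlp and 31 of 39 insulin-like genes passed. Just inside the floor were ins-12 with 50, ins-19 with 52 and ins-25 with 61 counts, and just outside it were nlp-60 with 44 counts and flp-23 and nlp-39 with 32 counts each.

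Worms of the strain WBM1339, which carries FLAG-tagged ribosomal subunits, were placed at the L1 stage on dimt-1 RNAi or control RNAi bacteria and collected as young adults. Translating ribosome affinity purification (TRAP) with an anti-FLAG antibody gave the ribosome-bound RNA labelled as muscle, and total RNA was taken from the whole worm. The groups were TRAP on dimt-1 RNAi, TRAP on control RNAi, total RNA on dimt-1 RNAi and total RNA on control RNAi, with 4 libraries each. The promoter that drives the tagged subunit is not given in the sources used here. Since whole animals were lysed, fewer cells of a type and less RNA per cell cannot be told apart.

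A precursor is cut at pairs of basic residues by proprotein convertases such as EGL-3, trimmed by the carboxypeptidase EGL-21, often amidated at its end, and stored in dense core vesicles whose release needs UNC-31. Most flp and nlp genes are expressed in neurons, although some nlp genes are expressed in the epidermis or the intestine. Insulin-like peptides bind the receptor DAF-2, which restrains the transcription factor DAF-16, and different members activate or block that receptor.

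The RFamide peptides are shown at the level of their codons because the flp genes differ in how many peptide copies they encode. Below are stretches of spliced coding sequence, read from the WBcel235 genome with its Ensembl annotation, for the member with the highest TRAP over total RNA ratio among the flp genes (flp-10), for flp genes that differed between dimt-1 RNAi and control RNAi in one of the fits below (flp-28, flp-8 and flp-14) and for flp-1. Capitals mark the codons for arginine, phenylalanine and glycine that precede a basic residue, where the glycine provides the amide of the mature peptide.
flp-10: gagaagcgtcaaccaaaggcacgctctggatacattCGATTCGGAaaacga
flp-28: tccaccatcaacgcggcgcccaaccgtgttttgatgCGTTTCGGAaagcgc
flp-8: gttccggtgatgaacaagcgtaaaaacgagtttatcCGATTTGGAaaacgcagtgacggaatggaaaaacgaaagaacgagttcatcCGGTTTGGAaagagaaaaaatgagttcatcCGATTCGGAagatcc
flp-14: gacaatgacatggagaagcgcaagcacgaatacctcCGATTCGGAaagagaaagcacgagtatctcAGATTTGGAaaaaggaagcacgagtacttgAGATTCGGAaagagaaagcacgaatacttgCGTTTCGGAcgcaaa
flp-1: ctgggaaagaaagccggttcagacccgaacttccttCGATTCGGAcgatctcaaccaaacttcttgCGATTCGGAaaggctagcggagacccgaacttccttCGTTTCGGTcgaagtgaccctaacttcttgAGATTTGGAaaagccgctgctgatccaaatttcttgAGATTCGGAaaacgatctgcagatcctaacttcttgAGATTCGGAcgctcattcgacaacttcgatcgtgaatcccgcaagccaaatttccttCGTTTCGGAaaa
By this count flp-10 on chromosome IV (7868907 to 7870081, plus strand) and flp-28 on chromosome X (10087314 to 10087966, minus strand) each encode 1 RFamide copy. The precursor of flp-8 on chromosome X (14881419 to 14882267, plus strand) holds 3 copies and that of flp-14 on chromosome III (12910510 to 12914783, plus strand) holds 4. Those of flp-1 on chromosome IV (9144705 to 9146128, plus strand) number 7.

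The libraries held 34794250 to 49782576 counts each. The RNAi target, listed as E02H1.1, had 28.3, 32, 39.2 and 25.9 CPM (counts scaled to the library size) in total RNA of dimt-1 RNAi replicates 1 to 4, against 37.7, 41.7, 40.4 and 37.3 CPM on control RNAi. The means of 31.3 ± 5.80 and 39.3 ± 2.15 CPM (SD, n = 4 each) did not pass a two-sided exact permutation test (p = 0.0857, adjusted p = 0.171 over the tests in total RNA and TRAP, smallest possible p 0.0286). In TRAP the target averaged 22.6 ± 7.79 CPM on dimt-1 RNAi and 15.9 ± 5.35 CPM on control RNAi (SD, n = 4 each; exact permutation p = 0.200, adjusted p = 0.200). In total RNA the library labelled dimt-1 replicate 3 (replicate 3 of dimt-1 RNAi below) was within the control range, and in TRAP replicates 1 to 3 were within the control range and replicate 4 was above it. A lower level of dimt-1 on dimt-1 RNAi was thus not shown in these libraries. Whether replicate 3 carries the right label or had no knockdown cannot be told apart, so all values below, TRAP included, are by label. In total RNA, calls that change without this library are given both ways. For TRAP over total RNA, calls of members lost without replicate 3 are given. The ratios of marker, processing, vesicle and insulin receptor genes are given only with it.

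In total RNA the nlp genes were the most abundant of the 3 families. Levels between genes are compared as CPM per kb of exon (CPM with TMM scaling factors over the 8 total RNA libraries, divided by exon length). On this scale nlp genes held 69% of the summed level of all members, flp genes 26.2% and insulin-like genes 4.86%, and the 5 highest genes alone held 44.5%. Those 5 were all nlp genes. Of the 127 members, 102 averaged at least 1 CPM, namely 30 flp, 53 nlp and 19 insulin-like genes.

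nlp-24, one of the epidermal nlp genes, averaged 262 ± 42.6 CPM per kb over the 8 libraries (SD, n = 8). nlp-27, of the same group, averaged 234 ± 23.4 CPM per kb. nlp-40, which encodes the intestinal peptide that times the defecation motor program through the receptor AEX-2, averaged 205 ± 10.6 CPM per kb. The ranges of nlp-24 and nlp-27 overlapped, as did those of nlp-27 and nlp-40. nlp-36 followed with 155 ± 15.8 CPM per kb, and its highest library (179) was below the lowest library of nlp-40 (190). nlp-33 was next with 95.8 ± 19.5 CPM per kb, and its range was apart from that of nlp-36. From there on neighbours in the order overlapped: nlp-33 with flp-28, flp-28 (63.8 ± 11.2) with flp-14 (56.8 ± 10.6), and flp-14 with nlp-49 (45.3 ± 6.44).

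**Figure D1:**
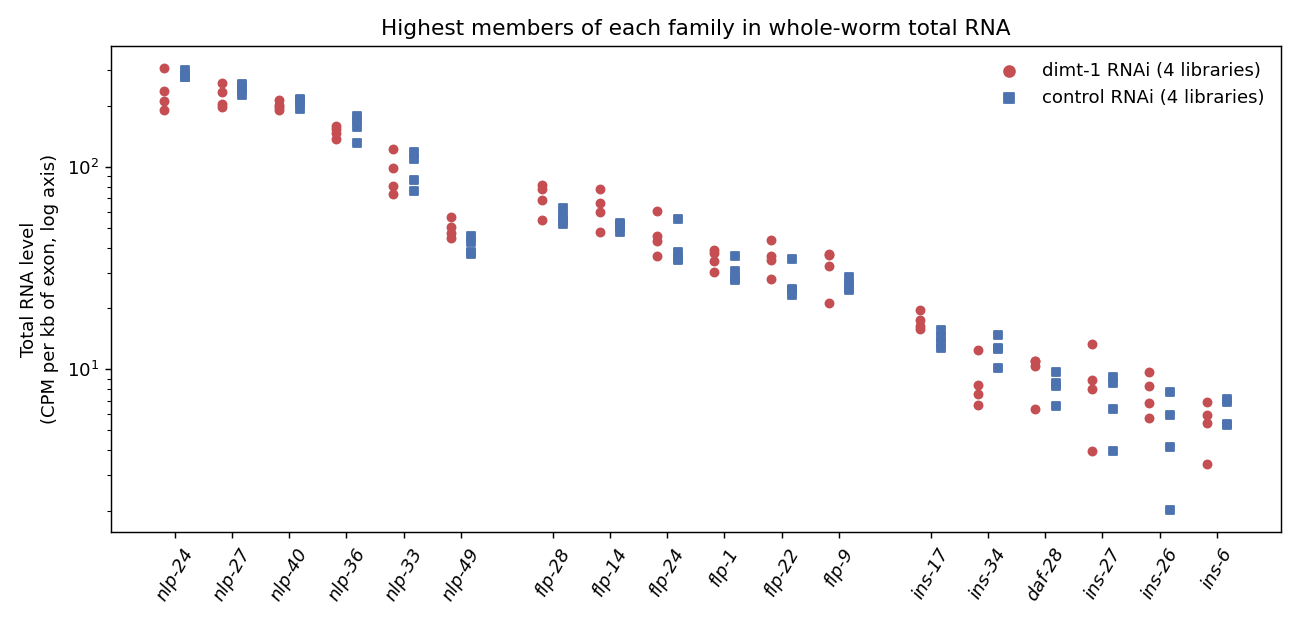
Total RNA level of the 6 highest members of each family, as CPM per kb of exon on a log axis; each symbol is 1 library, with dimt-1 RNAi as circles on the left and control RNAi as squares on the right of each pair (4 libraries each). nlp-24 is highest (mean 262 CPM per kb over both groups) and the highest insulin-like gene, ins-17, averages 15.7 CPM per kb.

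Among flp genes, flp-24 averaged 43.7 ± 9.81, flp-1 32.9 ± 4.33, flp-22 31.4 ± 7.15 and flp-9 29.1 ± 5.87 CPM per kb (SD, n = 8). flp-1 peptides modulate locomotion. The sleep-linked flp-11 and flp-13, whose peptides are released by the RIS and ALA neurons, averaged 22.4 ± 5.28 and 12 ± 2.5 CPM per kb. flp-18, which encodes ligands of NPR-1, NPR-4 and NPR-5, averaged 20.1 ± 3.31 CPM per kb.

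Insulin-like genes were low. ins-17, a putative antagonist of DAF-2, was highest of them with 15.7 ± 2.27 CPM per kb, followed by ins-34 (10.7 ± 2.90) and the agonist gene daf-28 (8.98 ± 1.85). ins-27 had 7.79 ± 3.09, ins-26 6.30 ± 2.43 and ins-6, an agonist gene of sensory neurons, 5.80 ± 1.23 CPM per kb. Other well-studied members were lower still, with ins-4 at 4.41 ± 1.43, ins-7 at 3.79 ± 2.58, ins-18 at 2.48 ± 1.73 and ins-1 at 1.67 ± 0.668 CPM per kb (SD, n = 8).

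The first comparison asked whether peptide genes differed between dimt-1 RNAi and control RNAi in total RNA. With all 8 libraries edgeR's quasi-likelihood test with Benjamini-Hochberg adjustment called 0 of the 120 members tested, and 0 of all 15441 genes (0% called), at an adjusted p under 0.05. At an unadjusted p under 0.05 there were 17 of the 120 members, against 2504 of the 15441 genes. DESeq2 called 2 members (flp-8 and nlp-6) and limma voom with library quality weights called 6. The shares of all genes called by these tests are not given here, so the counts have no background beside them. The fitted log2 fold change was above 0 in 91 of 120 members, with a median of 0.24, while it was above 0 in 8091 of 15441 genes, with a median of 0.01. By family the medians were 0.24 for flp genes (28 of 30 above 0), 0.23 for nlp genes (45 of 64) and 0.30 for insulin-like genes (18 of 26). Without replicate 3 of dimt-1 RNAi the medians were 0.30 for flp genes (29 of 30 above 0), 0.29 for nlp genes (45 of 65) and 0.34 for insulin-like genes (18 of 27).

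The lean towards higher values was not shared by the 4 dimt-1 libraries. Relative to the mean of the control libraries, the median log2 ratio of the 30 flp genes was 0.43, 0.09, −0.07 and 0.46 in dimt-1 replicates 1 to 4, against 0.07, −0.04, −0.04 and −0.06 in the control replicates. For the 53 nlp genes averaging at least 1 CPM it was 0.24, 0.12, −0.00 and 0.34 on dimt-1 RNAi, against 0.05, −0.02, −0.02 and −0.02 on control RNAi. For the 19 insulin-like genes of that level it was 0.54, −0.08, −0.07 and 0.26 on dimt-1 RNAi, against 0.07, 0.06, −0.01 and −0.19 on control RNAi. Replicates 1 and 4 of dimt-1 RNAi were thus above all control libraries in every family, while replicate 3 was not above them in any. Replicate 2 was above all control libraries for flp and nlp genes, by less than replicates 1 and 4, and not for insulin-like genes.

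**Figure D2:**
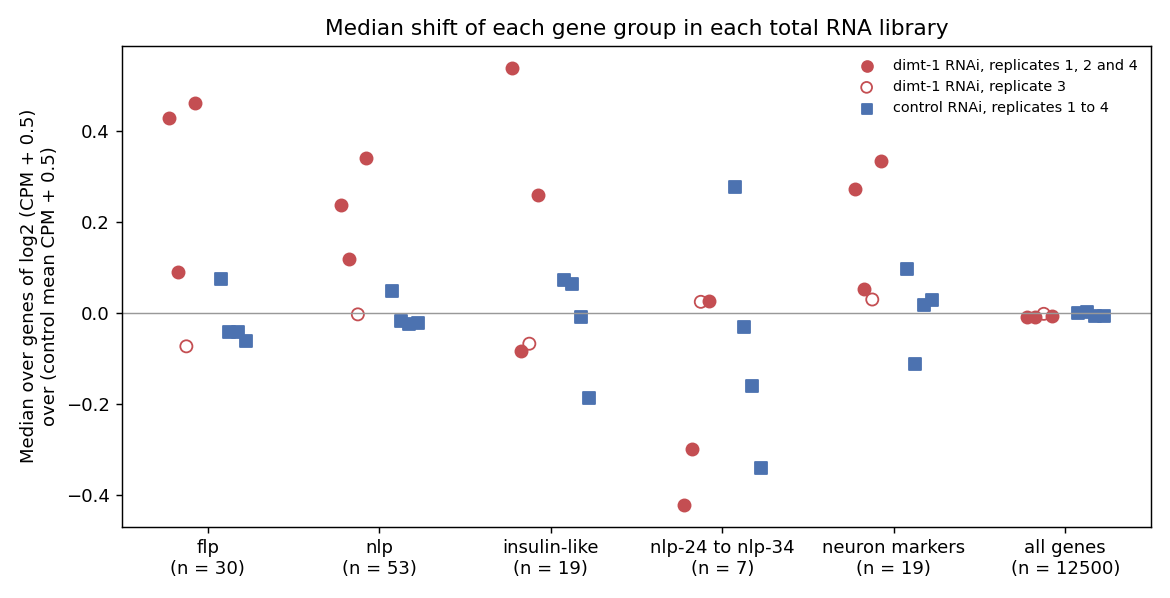
Median over the genes of a group of log2 (CPM + 0.5) over the control mean (CPM + 0.5), 1 symbol per total RNA library, with dimt-1 RNAi as circles (replicate 3 open) left of control RNAi as squares; n is the number of genes averaging at least 1 CPM. The 30 flp genes reach 0.46 in dimt-1 replicate 4 and −0.07 in replicate 3, and the medians of nlp-24 to nlp-34 overlap between the groups.

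Summed levels of markers of other cell types differed among the same libraries, although 0 markers in any list were called with all 8 libraries. Of 22 neuron markers, 17 had a fitted log2 fold change above 0 with all 8 libraries, with a median of 0.17, and without replicate 3 of dimt-1 RNAi 1 was called higher, with a median of 0.26. Their summed level was 325, 288, 277 and 348 CPM in dimt-1 replicates 1 to 4, against 289, 263, 281 and 275 CPM in the control replicates. Of the 22, 10 also belong to the peptide processing and vesicle lists used below. Summed sperm markers (37 genes) stood at 1205, 672, 295 and 1431 CPM on dimt-1 RNAi, against 349, 342, 263 and 294 CPM on control RNAi, so replicates 1 and 4 were also the highest there. Without replicate 3 of dimt-1 RNAi, 31 of 36 tested sperm markers were called higher. Summed pharynx markers (7 genes) stood at 336, 258, 201 and 341 CPM on dimt-1 RNAi, against 195, 184, 210 and 208 CPM on control RNAi, and 4 of 6 tested were called higher without replicate 3. Summed intestine markers (11 genes) stood at 14740, 15300, 23080 and 18280 CPM on dimt-1 RNAi, against 20970, 23840, 20960 and 20620 CPM on control RNAi, and 7 of 11 were called lower and 2 higher without replicate 3. Of 12 muscle markers 3 were called higher without that library, and of 10 germline markers 1 was called lower. The part of these cell types in the values of the peptide genes was not tested.

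The member with the smallest p in total RNA was nlp-6. It had 19.7, 19.8, 17.2 and 21.6 CPM on dimt-1 RNAi, against 14.3, 13.2, 12.8 and 13.2 CPM on control RNAi. All 4 dimt-1 libraries were above all 4 control libraries, replicate 3 included. The log2 fold change was 0.55 ± 0.124 (SE), with an adjusted p of 0.0929 in edgeR, of 0.00434 in DESeq2 and of 0.00848 in limma voom with quality weights.

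Without overlap between the groups, dimt-1 RNAi was higher for 5 of 120 members (4.17%), against 3.52% of all genes tested. Besides nlp-6 these were ins-17, nlp-16, nlp-18 and flp-4. nlp-18 had 9.53, 12.1, 9.49 and 12.6 CPM on dimt-1 RNAi, against 8.96, 8.81, 8.91 and 9.02 CPM on control RNAi. ins-17 had 11, 9.15, 8.79 and 9.76 CPM on dimt-1 RNAi, against 8.03, 8.70, 7.48 and 7.07 CPM on control RNAi, a gap smaller than the spread within either group. nlp-16, nlp-18 and flp-4 were chosen after their values were seen. Dimt-1 RNAi was lower without overlap for 1 member, nlp-31, against 3.2% of all genes. nlp-31, an epidermal antimicrobial peptide gene, had 6.76, 8.17, 9.35 and 9.43 CPM on dimt-1 RNAi and 11.9, 10.8, 10.1 and 12.8 CPM on control RNAi, with a log2 fold change of −0.44 ± 0.167 (SE, edgeR adjusted p = 0.233).

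When the library labelled dimt-1 replicate 3 was left out, edgeR called 12 of 122 members. Of these, 10 were higher on dimt-1 RNAi (8.2% of the members tested, against 6.99% of all 15845 genes) and 2 were lower (against 8.03% of all genes). The 10 higher genes were flp-8, flp-9, flp-14, flp-28, flp-32, nlp-6, nlp-47, nlp-80, ins-28 and ins-37, and the lower ones were nlp-24 and ins-34. By family, 5 of 30 flp genes, 3 of 65 nlp genes and 2 of 27 insulin-like genes were higher. Replicate 3 was singled out from its values in these same data, so the adjusted p-values of the fit without it are descriptive.

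flp-8 had 25.6, 18.1, 11.7 and 21.5 CPM on dimt-1 RNAi, against 11.8, 11.8, 11.9 and 13.1 CPM on control RNAi. Replicate 3 was just below the lowest control library, and the other dimt-1 libraries were above all of them. The log2 fold change was 0.83 ± 0.147 without replicate 3 (SE, edgeR adjusted p = 0.000997) and 0.66 ± 0.202 with it (adjusted p = 0.159).

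flp-32 had 4.2, 4, 0.698 and 5.38 CPM on dimt-1 RNAi, against 2.01, 1.72, 1.86 and 1.74 CPM on control RNAi. Its value in replicate 3 was the lowest of the 8 libraries. The log2 fold change was 1.30 ± 0.302 without that library (SE, edgeR adjusted p = 0.00786) and 0.96 ± 0.481 with it (adjusted p = 0.349).

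flp-28, flp-14 and flp-9 are among the 6 most abundant flp genes and had smaller differences. flp-28 had 42.7, 37.5, 29.9 and 44.7 CPM on dimt-1 RNAi, against 28.7, 34.4, 31.5 and 29.8 CPM on control RNAi (log2 0.42 ± 0.102 without replicate 3, SE, edgeR adjusted p = 0.0110). flp-14 had 31.5, 28.7, 22.7 and 37 CPM on dimt-1 RNAi, against 24.2, 25.3, 24.6 and 22.7 CPM on control RNAi (log2 0.42 ± 0.115, edgeR adjusted p = 0.0208). flp-9 had 20.6, 23.5, 13.5 and 23.3 CPM on dimt-1 RNAi, against 18.1, 15.9, 16.6 and 15.6 CPM on control RNAi (log2 0.44 ± 0.125, edgeR adjusted p = 0.0262). In each of these genes replicate 3 was below or within the control range.

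nlp-80 had 14, 13, 6.14 and 12.4 CPM on dimt-1 RNAi, against 7.67, 6.70, 7.83 and 8.10 CPM on control RNAi, with a log2 fold change of 0.79 ± 0.163 without replicate 3 (SE, edgeR adjusted p = 0.00336). nlp-47, which encodes a peptide related to gonadotropin-releasing hormone, had 18.4, 11.7, 8.70 and 13.8 CPM on dimt-1 RNAi, against 6.49, 8.92, 10.9 and 10.3 CPM on control RNAi (log2 0.67 ± 0.204, edgeR adjusted p = 0.0360). The 3 dimt-1 libraries other than replicate 3 were above all control libraries for both genes.

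The 2 insulin-like genes that were higher had low counts. ins-28 had 3.79, 2.84, 1.40 and 2.49 CPM on dimt-1 RNAi, against 0.721, 1.27, 1.36 and 1.44 CPM on control RNAi (log2 1.34 ± 0.409 without replicate 3, SE, edgeR adjusted p = 0.0372). ins-37 had 138, 56, 12 and 114 counts on dimt-1 RNAi, against 0, 12, 34 and 10 counts on control RNAi (log2 2.80 ± 0.822, edgeR adjusted p = 0.0309). ins-37 shares 171 exon bases with an annotated gene on the same strand and 192 with one on the opposite strand, and since the counting strand is not stated its counts are uncertain.

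nlp-24 was lower on dimt-1 RNAi, with 80.3, 72.2, 116 and 89.9 CPM, against 105, 105, 114 and 107.8 CPM on control RNAi. Replicate 3 was the highest of the 8 libraries. The log2 fold change was −0.42 ± 0.0776 without it (SE, edgeR adjusted p = 0.00157) and −0.27 ± 0.119 with it (adjusted p = 0.298). ins-34 had 3.83, 3.38, 6.28 and 4.26 CPM on dimt-1 RNAi, against 7.52, 6.43, 5.17 and 6.35 CPM on control RNAi, with a log2 fold change of −0.74 ± 0.233 without replicate 3 (SE, edgeR adjusted p = 0.0437). It shares 82 exon bases with nkcc-1 on the opposite strand.

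**Figure D3:**
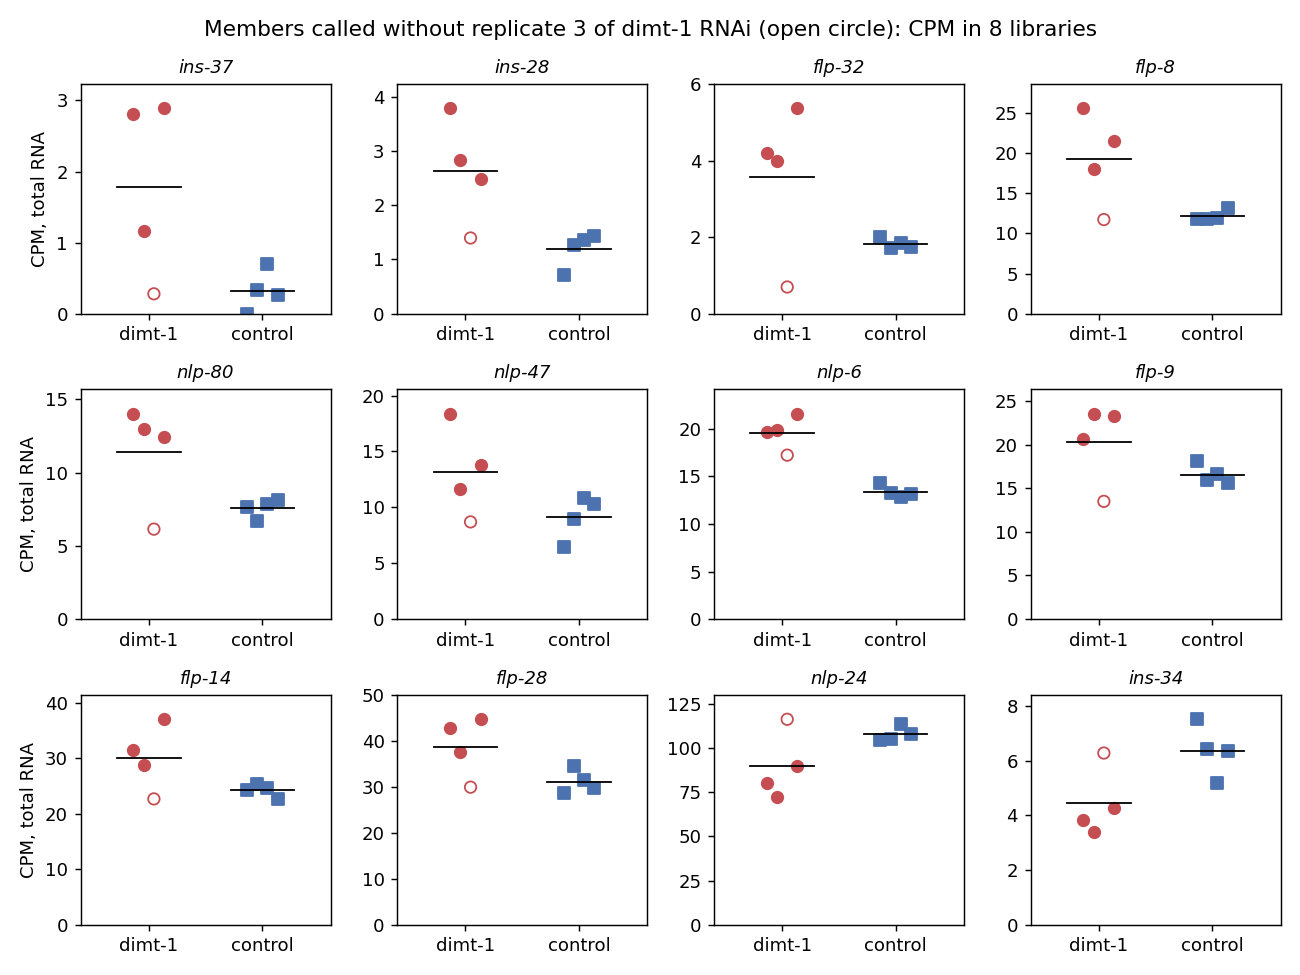
CPM in total RNA of the 12 members called when replicate 3 of dimt-1 RNAi was left out; each symbol is 1 library, dimt-1 RNAi (circles, replicate 3 open) on the left and control RNAi (squares) on the right, with the mean of all 4 libraries as a line and the axis starting at 0. For nlp-6 the open circle (17.2 CPM) is above all control libraries, and for flp-32 (0.698 CPM) it is below them.

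Among members averaging at least 1 CPM, the 5 largest fitted rises with all libraries were those of ins-37, nlp-63, ins-28, ins-33 and flp-32, and the 5 largest fitted decreases those of ins-2, ins-31, ins-18, ins-34 and nlp-31. Low genes with wide spread filled most of these places. nlp-63 had 1.39, 0.917, 1.72 and 1.67 CPM on dimt-1 RNAi, against 0.515, 1.61, 0.0412 and 0.41 CPM on control RNAi (log2 1.15 ± 0.79, SE, edgeR adjusted p = 0.504). ins-33 had 5.83, 1.54, 1.16 and 2.89 CPM on dimt-1 RNAi, against 1.29, 1.61, 0.948 and 1.69 CPM on control RNAi (log2 1.05 ± 0.499, edgeR adjusted p = 0.323). ins-2 had 0.978, 1.54, 1.21 and 0.71 CPM on dimt-1 RNAi, against 1.6, 4.15, 0.763 and 1.64 CPM on control RNAi (log2 −0.87 ± 0.533, edgeR adjusted p = 0.448). The groups overlapped in all 3 genes.

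For ins-31 and ins-18 the groups overlapped as well. ins-31 had 0.652, 1.29, 1.49 and 0.456 CPM on dimt-1 RNAi, against 2.63, 1.94, 1.32 and 0.564 CPM on control RNAi (log2 −0.73 ± 0.58, edgeR adjusted p = 0.578). ins-18, a putative antagonist of DAF-2, had 0.53, 0.792, 0.465 and 1.67 CPM on dimt-1 RNAi, against 1.34, 0.388, 0.825 and 2.56 CPM on control RNAi (log2 −0.56 ± 0.668, edgeR adjusted p = 0.729).

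The insulin-like genes with known roles in dauer formation and lifespan were not called with all 8 libraries. daf-28 had 8.43, 8.47, 4.86 and 7.91 CPM on dimt-1 RNAi, against 6.33, 7.39, 6.58 and 5.05 CPM on control RNAi (log2 0.23 ± 0.222, edgeR adjusted p = 0.661, and 0.38 ± 0.2 with an adjusted p of 0.235 without replicate 3). ins-6 had 2.81, 3.59, 1.77 and 3.09 CPM on dimt-1 RNAi, against 3.71, 3.6, 2.80 and 2.77 CPM on control RNAi (log2 −0.19 ± 0.297, edgeR adjusted p = 0.801, and −0.03 ± 0.298 with an adjusted p of 0.974 without replicate 3). The fitted log2 fold changes of ins-4, ins-7 and ins-1 were 0.08 ± 0.363, 0.49 ± 0.591 and 0.08 ± 0.496 (SE). Of 8 agonist genes 5 could be tested, with 4 above 0 and a median of 0.08, and of 5 antagonist genes all were tested, with 4 above 0 and a median of 0.31. Without replicate 3 of dimt-1 RNAi 0 of 6 agonist genes and 1 of 5 antagonist genes (ins-37, described above) were called higher. Of the receptor gene daf-2 and its output genes daf-16, age-1, akt-1 and daf-18, 0 of 5 were called with all libraries and 1 without dimt-1 replicate 3, namely daf-16, with a log2 fold change of 0.21 ± 0.0588 (SE, edgeR adjusted p = 0.0241).

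Of the epidermal group nlp-24 to nlp-34, nlp-24 was called by edgeR without replicate 3 and not with it. Of the group's 8 tested genes 1 had a log2 fold change above 0, with a median of −0.25, and 0 were called (1 of 9 lower without replicate 3). The median log2 ratio over the control mean of 7 of them was −0.42, −0.30, 0.02 and 0.03 in dimt-1 replicates 1 to 4, against 0.28, −0.03, −0.16 and −0.34 in the control replicates, so the groups overlapped. The difference from the other nlp genes was not tested. Of 5 tested caenacin genes (cnc), related epidermal antimicrobial peptide genes, 2 were above 0 with a median of −0.60, and 0 were called (1 lower without replicate 3). nlp-29, which is induced by fungal infection and wounding, had 2.61, 3.55, 2.7 and 4.67 CPM on dimt-1 RNAi, against 5.35, 3.05, 5.07 and 2.51 CPM on control RNAi (log2 −0.24 ± 0.321, edgeR adjusted p = 0.758). The 11 epidermis markers had 7 genes above 0, a median of 0.18 and 0 calls (1 higher and 1 lower without replicate 3). The intestinal gene nlp-40 had 135.9, 144, 153 and 142 CPM on dimt-1 RNAi, against 138, 154, 149 and 156 CPM on control RNAi (log2 −0.05 ± 0.0635, edgeR adjusted p = 0.750), and it was not called without replicate 3 either (adjusted p = 0.453), where 7 of 11 intestine markers were lower.

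Of the genes that make, store and sense the peptides, 0 were called in total RNA with all 8 libraries. Of 9 processing genes 7 had a log2 fold change above 0 in total RNA, with a median of 0.17, and 0 were called. Without replicate 3, sbt-1, which encodes the chaperone 7B2 of EGL-3, was higher (log2 0.33 ± 0.1, SE, edgeR adjusted p = 0.0363) and the proprotein convertase gene kpc-1 was lower (log2 −0.64 ± 0.161, adjusted p = 0.0132). Of 12 vesicle and release genes 7 were above 0, with a median of 0.06 and 0 calls (unc-108, a Rab GTPase gene, lower without replicate 3). Of 29 receptor genes tested 23 were above 0, with a median of 0.26 and 0 calls. The median log2 ratio over the control mean of 19 receptor genes averaging at least 1 CPM was 0.53, 0.28, −0.03 and −0.03 in dimt-1 replicates 1 to 4, against 0.00 to 0.04 in the control replicates. Replicates 1 and 2 were thus the highest for receptors, and replicates 1 and 4 the highest for each peptide family. Without replicate 3 npr-5, a receptor for FLP-18 peptides, was called higher (log2 0.93 ± 0.225, edgeR adjusted p = 0.0105). Both degradation genes that could be tested were below 0 and were not called.

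The second comparison set muscle TRAP against total RNA, to see which peptide genes had more RNA on the tagged ribosomes than in the whole worm. A few members were much higher in TRAP on both RNAi treatments, and most were near the middle of all genes. In a fit over the 16 libraries (TMM scaling), 4 of 123 members were higher in TRAP on dimt-1 RNAi, against 15.6% of all 15897 genes, and 1 was lower, against 9.34%. On control RNAi 7 of 123 were higher, against 15.7% of all genes, and 7 were lower, against 26.5%. The median log2 ratio of the members was −0.03 on dimt-1 RNAi and −0.03 on control RNAi, against −0.16 and −0.35 for all genes. The zero point of this ratio depends on the scaling. With scaling by library size only, the median of all genes was −1.58 on dimt-1 RNAi and −1.77 on control RNAi. Under that scaling 4 members were higher and 32 lower on dimt-1 RNAi (7.4% and 44.2% of all genes), and 4 were higher and 47 lower on control RNAi (7.72% and 57.8%).

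The 12 muscle markers were all called higher in TRAP with either RNAi (TMM scaling), with median log2 ratios of 4.08 on dimt-1 RNAi and 4.34 on control RNAi. Under scaling by library size only, 11 of the 12 were called higher on control RNAi, with a median of 2.89. With TMM scaling the muscle markers ranged between the log2 ratios of unc-22 (0.73 on dimt-1 RNAi and 1.28 on control RNAi) and of pat-10 (6.13 on dimt-1 RNAi and 6.55 on control RNAi). The 22 neuron markers had medians of −0.66 on dimt-1 RNAi and −0.56 on control RNAi, and they went in both directions. On dimt-1 RNAi 2 were called higher and 1 lower (against 15.6% and 9.34% of all genes). On control RNAi 2 were called higher and 6 lower (against 15.7% and 26.5% of all genes). The highest was unc-13, at 1.58 on dimt-1 RNAi and 2.09 on control RNAi. The summed level of the 22 neuron markers, as CPM without TMM factors, was 97.4 to 117 in TRAP on dimt-1 RNAi and 81.5 to 105 in TRAP on control RNAi. In total RNA it was 267 to 345 on dimt-1 RNAi and 254 to 284 on control RNAi. The genes at 0 in all 4 TRAP libraries of a group numbered 0 of 22 on dimt-1 RNAi and 4 of 22 on control RNAi.

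ins-27 stood furthest out among the members. It had 4805, 5282, 4929 and 7672 counts in TRAP on dimt-1 RNAi, and 4519, 4840, 4082 and 4691 counts in TRAP on control RNAi. Total RNA held 60, 132, 107 and 164 counts on dimt-1 RNAi, and 110, 96, 96 and 48 counts on control RNAi. The lowest TRAP library was thus far above the highest total RNA library. The log2 ratio was 7.20 ± 0.352 on dimt-1 RNAi (SE, edgeR adjusted p = 3.18e-13) and 7.11 ± 0.353 on control RNAi (adjusted p = 3.9e-13). It ranked 21 of 15897 genes on dimt-1 RNAi and 34 of 15897 on control RNAi, above every muscle marker in the list. ins-27 gave 83.3 to 86.7% of the counts of all 31 insulin-like genes in TRAP on dimt-1 RNAi and 76.6 to 83.2% in TRAP on control RNAi, against 1.72 to 7.12% in total RNA on dimt-1 RNAi and 2.85 to 5.20% in total RNA on control RNAi. The gene lies on chromosome I (WBcel235, 14027236 to 14027588, plus strand) and overlaps no other annotated gene.

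ins-29 lies on the same arm (14018799 to 14019759, plus strand). It had 242, 334, 200 and 396 counts in TRAP on dimt-1 RNAi, and 240, 250, 170 and 358 counts in TRAP on control RNAi. In total RNA it had 76, 0, 50 and 26 counts on dimt-1 RNAi, and 4, 30, 2 and 22 counts on control RNAi. The log2 ratio was 4.56 ± 0.956 on dimt-1 RNAi (SE, edgeR adjusted p = 0.000874) and 5.41 ± 1.00 on control RNAi (adjusted p = 0.000189). ins-29 and nlp-69 average under 1 CPM in total RNA and were chosen after their values were seen.

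nlp-69 lies on chromosome V (20094253 to 20095008, minus strand) inside the span of sec-23 on the other strand, with which it shares 0 exon bases. It had 178, 220, 154 and 206 counts in TRAP on dimt-1 RNAi, and 350, 206, 222 and 426 counts in TRAP on control RNAi. Total RNA held 28, 20, 16 and 48 counts on dimt-1 RNAi, and 24, 26, 46 and 21 counts on control RNAi. The log2 ratio was 4.31 ± 0.542 on dimt-1 RNAi (SE, edgeR adjusted p = 1.57e-06) and 4.73 ± 0.552 on control RNAi (adjusted p = 5.02e-07).

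flp-10, the single-copy RFamide gene shown above, was the only flp gene called. It had 1364, 1541, 274 and 772 counts in TRAP on dimt-1 RNAi, and 1219, 940, 542 and 1114 counts in TRAP on control RNAi. Total RNA held 780, 548, 384 and 426 counts on dimt-1 RNAi, and 396, 382, 588 and 395 counts on control RNAi. Except in replicate 3 of both RNAi treatments, each TRAP library had more counts than its total RNA library of the same number. The log2 ratio was 2.44 ± 0.337 on dimt-1 RNAi (SE, edgeR adjusted p = 6.24e-06) and 2.52 ± 0.339 on control RNAi (adjusted p = 3.86e-06).

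ins-27, nlp-69 and flp-10 were called higher in TRAP in all 17 fits with either RNAi, and ins-29 in the 16 fits that held it. Even with scaling by library size only, their log2 ratios stayed above 0: the lowest value of flp-10 over the fits was 1.01 on dimt-1 RNAi and 1.05 on control RNAi, and that of ins-27 was 5.77 on dimt-1 RNAi and 5.66 on control RNAi. In these 4 genes every stretch of 50 exon bases occurs once in the genome.

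**Figure D4:**
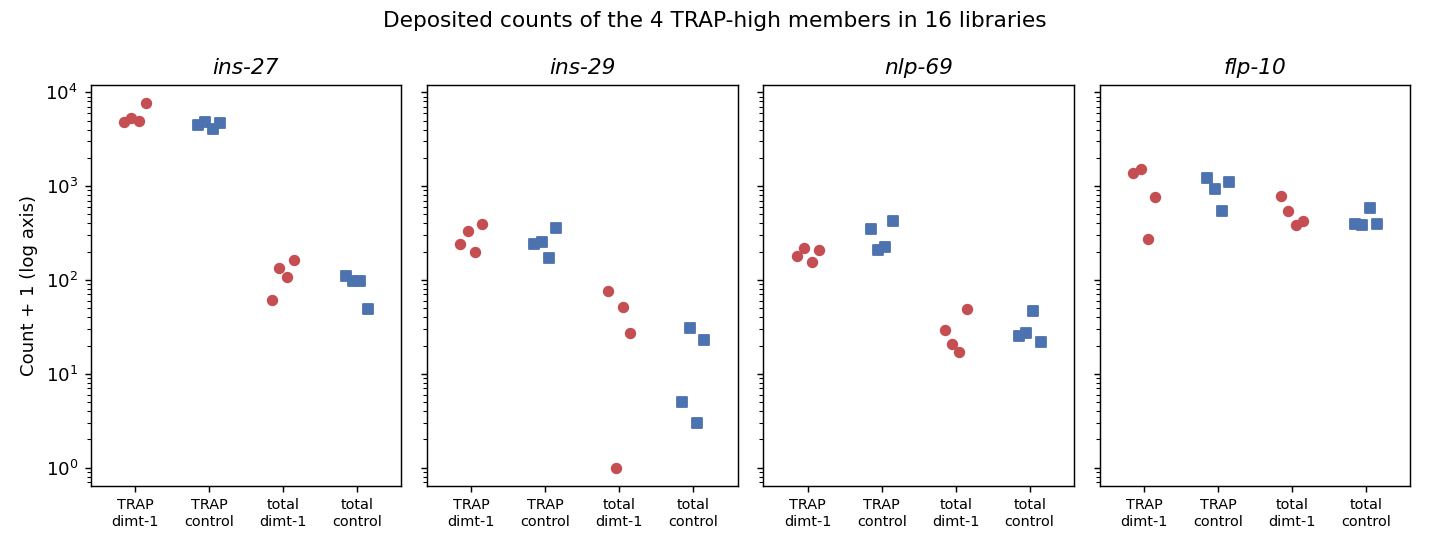
Deposited counts (plus 1, log axis, not scaled for depth) of ins-27, ins-29, nlp-69 and flp-10; each symbol is 1 library, TRAP left of total RNA and dimt-1 RNAi (circles) left of control RNAi (squares). ins-27 has 4082 to 7672 counts in the TRAP libraries, against 48 to 164 in total RNA.

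The other members called higher on control RNAi were not called on dimt-1 RNAi. nlp-12, a cholecystokinin-like peptide gene of the DVA neuron, had between 100 and 186 counts in TRAP and 444, 301, 253 and 286 counts in total RNA on dimt-1 RNAi. On control RNAi it had 192, 196, 114 and 300 counts in TRAP and 230, 189, 190 and 152 counts in total RNA. The log2 ratio was 0.37 ± 0.45 on dimt-1 RNAi (SE, edgeR adjusted p = 0.709) and 1.43 ± 0.458 on control RNAi (adjusted p = 0.0164), which became −0.02 with scaling by library size only. nlp-1, a ligand gene of the AWC olfactory neurons for NPR-11, had log2 ratios of 1.26 ± 0.561 on dimt-1 RNAi (SE, edgeR adjusted p = 0.118) and 1.6 ± 0.566 on control RNAi (adjusted p = 0.0281). The call of nlp-12 was lost without control replicate 4 (adjusted p = 0.0761), and that of nlp-1 without dimt-1 replicate 1 or control replicate 1, 2 or 3 (adjusted p = 0.0509 to 0.124). ins-25, which lies beside ins-29 (14020361 to 14021312), had 0, 24, 92 and 30 TRAP counts on dimt-1 RNAi and 22, 0, 0 and 0 on control RNAi, with 61 counts in total RNA over all 8 libraries. Its call on control RNAi rests on 1 library and was lost in 5 of the 8 fits that left out a library, and it was chosen after its values were seen. In a fit that paired libraries by number (a replicate block), nlp-1, nlp-12 and ins-25 were not called (edgeR adjusted p = 0.0953 to 0.218).

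Of the 7 members called lower in TRAP on control RNAi, all were at 0 in the 4 TRAP libraries of that RNAi. With 3 counts over the group set in place of 0, nlp-35 was 26.3-fold lower in TRAP, ins-24 22.4-fold, nlp-66 18.6-fold and nlp-63 12.2-fold. ins-22 and ins-35 were each 7.14-fold lower and nlp-78 5.36-fold. These values do not bound the true difference, since 21 members were at 0 in one control TRAP library and at 100 counts or more in another. nlp-66, ins-22, ins-35 and nlp-78 were chosen after their values were seen. The call of nlp-63 was lost without control replicate 2 (adjusted p = 0.057), that of ins-35 without dimt-1 replicate 2 or any 1 control replicate (0.0539 to 0.102), and that of nlp-78 without dimt-1 replicate 4 or any 1 control replicate (0.0657 to 0.126). With the replicate block, nlp-63, ins-22, ins-35 and nlp-78 were not called (edgeR adjusted p = 0.067 to 0.108). On dimt-1 RNAi the same 7 genes were not called. ins-24 then had 26, 22, 0 and 22 TRAP counts, and nlp-35 had 32, 26, 99 and 16. The only member called lower on dimt-1 RNAi was the intestinal gene nlp-40, with 1926, 1772, 880 and 1640 counts in TRAP and 6672, 6926, 6588 and 5584 counts in total RNA (log2 ratio −0.48 ± 0.149, SE, edgeR adjusted p = 0.0190). On control RNAi its log2 ratio was −0.33 ± 0.148 (adjusted p = 0.0805). The call on dimt-1 RNAi was lost without dimt-1 replicate 2 (adjusted p = 0.065) or replicate 3 (log2 ratio −0.28, adjusted p = 0.102).

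These zeros were uneven among the TRAP libraries. Of the 127 members, 11, 10, 46 and 8 were at 0 in TRAP replicates 1 to 4 on dimt-1 RNAi and 36, 47, 48 and 40 on control RNAi, against 2 to 7 in a total RNA library on dimt-1 RNAi and 3 to 7 on control RNAi. In TRAP on control RNAi 21 members were at 0 in one library and at 100 counts or more in another, against 2 in TRAP on dimt-1 RNAi. The library labelled dimt-1 replicate 3 resembled the control TRAP libraries in this count. The part of these zeros in the ratios was not tested.

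Other members at the ends of the order on control RNAi were not called. Among the higher ones, ins-23, ins-28 and flp-34 had log2 ratios of 0.68 ± 1.3, 0.91 ± 0.981 and −1.02 ± 1.04 on dimt-1 RNAi (SE), and 2.32 ± 1.36, 2.11 ± 1.01 and 2.03 ± 1.06 on control RNAi. Among the lower ones, nlp-58, ins-6 and nlp-11 had −0.16 ± 1.41, 0.74 ± 1.1 and −0.17 ± 0.722 on dimt-1 RNAi, and −1.69 ± 1.46, −1.66 ± 1.13 and −1.56 ± 0.742 on control RNAi. ins-28 lies beside ins-29, ins-25 and ins-27 on chromosome I (14012369 to 14013629, minus strand). ins-24, ins-26 and ins-30 share the transcript prefix ZC334 with these genes and were not called higher. ins-24 was called lower on control RNAi, as given above, and had −0.32 ± 1.26 on dimt-1 RNAi. ins-26 and ins-30 had −0.24 ± 1.29 and −2.41 ± 1.54 on dimt-1 RNAi, and −0.74 ± 1.3 and 0.48 ± 1.45 on control RNAi. Of 6 agonist genes tested 1 had a ratio above 0 on each RNAi and 0 were called.

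Most flp and nlp genes had ratios near those of other genes. On dimt-1 RNAi the abundant flp-14, flp-28, flp-24 and flp-1 had log2 ratios of 0.22 ± 0.255, 0.38 ± 0.223, 0.04 ± 0.27 and −0.10 ± 0.299 (SE). On control RNAi they had 0.29 ± 0.255, 0.23 ± 0.223, 0.07 ± 0.271 and 0.25 ± 0.299. The epidermal genes nlp-24 and nlp-27 had 0.06 ± 0.131 and 0.21 ± 0.212 on dimt-1 RNAi, and 0.13 ± 0.131 and 0.49 ± 0.212 on control RNAi. None of these was called, and all of these ratios on control RNAi turned negative, and were called lower, with scaling by library size only.

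**Figure D5:**
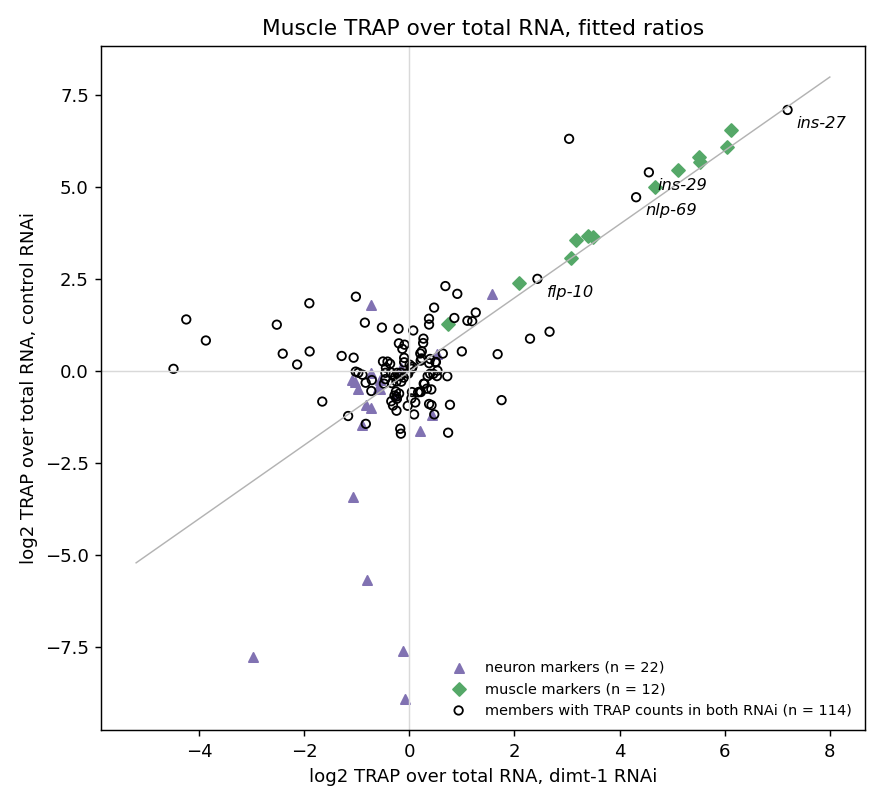
Fitted log2 ratio of TRAP over total RNA on dimt-1 RNAi (horizontal axis) and on control RNAi (vertical axis) for 114 members with TRAP counts under both RNAi treatments (open circles; 9 tested members at 0 in a TRAP group are left out), 12 muscle markers (diamonds) and 22 neuron markers (triangles); the grey diagonal marks equal ratios. ins-27 lies at 7.20 and 7.11, beyond the muscle markers, and most members lie around 0.

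Several receptor genes for these peptides had high TRAP ratios. Of 30 receptor genes tested, 7 were called higher in TRAP on dimt-1 RNAi and 8 on control RNAi (against 15.6% and 15.7% of all genes). Called lower were 1 on dimt-1 RNAi and 5 on control RNAi (against 9.34% and 26.5% of all genes). Their median log2 ratio was 0.51 on dimt-1 RNAi and 0.18 on control RNAi, and −1.35 on control RNAi with scaling by library size only. Of the 32 receptor genes listed, 2 on dimt-1 RNAi and 8 on control RNAi were at 0 in all 4 TRAP libraries. The 7 genes called higher with both were npr-5, npr-12, dmsr-1, dmsr-7, ckr-2, pdfr-1 and seb-3, and each of them was called higher in all 17 fits with either RNAi. npr-5 had 2399, 3410, 1112 and 1568 counts in TRAP and 638, 515, 266 and 494 counts in total RNA on dimt-1 RNAi (log2 ratio 3.71 ± 0.342, SE, edgeR adjusted p = 1.35e-08). On control RNAi npr-5 had 2658, 816, 1554 and 3756 counts in TRAP and 250, 138, 387 and 278 counts in total RNA (log2 ratio 4.39 ± 0.354, adjusted p = 1.51e-09).

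pdfr-1, the receptor gene for PDF peptides, had log2 ratios of 2.89 ± 0.226 on dimt-1 RNAi (SE, edgeR adjusted p = 9.48e-10) and 3.23 ± 0.23 on control RNAi (adjusted p = 1.87e-10). dmsr-1, a receptor gene for FLP-13 peptides, had 3.15 ± 0.222 on dimt-1 RNAi (edgeR adjusted p = 1.61e-10) and 3.40 ± 0.225 on control RNAi (adjusted p = 5.45e-11). ckr-2, a receptor gene for the peptides of nlp-12, had 2.90 ± 0.411 on dimt-1 RNAi and 3.25 ± 0.418 on control RNAi (SE). npr-12, dmsr-7 and seb-3 lay between 3.39 and 3.65 on dimt-1 RNAi and between 3.80 and 3.86 on control RNAi.

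Processing genes were called in both directions. Of 9 processing genes 2 were called higher and 2 lower in TRAP on dimt-1 RNAi, with a median of −0.18 (15.6% of all genes were higher and 9.34% lower). On control RNAi 1 was higher and 4 lower, with a median of −0.53 (15.7% of all genes were higher and 26.5% lower). egl-21 was lower with both, with log2 ratios of −0.82 ± 0.191 on dimt-1 RNAi (SE, edgeR adjusted p = 0.00241) and −0.90 ± 0.192 on control RNAi (adjusted p = 0.000752). sbt-1 was higher with both, with 0.52 ± 0.179 on dimt-1 RNAi (edgeR adjusted p = 0.0359) and 0.48 ± 0.179 on control RNAi (adjusted p = 0.0381). Of 12 vesicle and release genes 2 were higher and 0 lower on dimt-1 RNAi, and 1 was higher and 1 lower on control RNAi, with unc-13 higher under both (1.58 ± 0.268 on dimt-1 RNAi and 2.09 ± 0.272 on control RNAi, SE). Of the genes of the insulin receptor and its output, daf-18 was lower in TRAP on dimt-1 RNAi, and daf-18, age-1 and akt-1 were lower on control RNAi. These directions depend on the scaling. By library size only, all 9 processing genes were called lower on control RNAi, sbt-1 included, against 57.8% of all genes. Of the 12 vesicle and release genes 1 was then higher and 7 were lower, and all 5 genes of the insulin receptor and its output were lower.

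The last comparison asked whether the ratio of TRAP over total RNA differed between dimt-1 RNAi and control RNAi. In edgeR's interaction test 0 of 123 members and 0 of 15897 genes were called (0% called), with 8 members at an unadjusted p under 0.05. DESeq2 called 2 members, nlp-35 and ins-22, and limma voom with quality weights called 0. For the 8 members and the DESeq2 calls the share over all genes is not given here. Neither count is therefore read as a result about the members. For the TRAP-high genes the difference of the log2 ratios, dimt-1 RNAi minus control RNAi, was 0.09 ± 0.407 for ins-27, −0.85 ± 1.19 for ins-29, −0.42 ± 0.679 for nlp-69 and −0.08 ± 0.454 for flp-10 (SE). nlp-35 and ins-22 are 2 of the genes at 0 in all TRAP libraries on control RNAi. The fitted difference of nlp-35 has no bound, as it depends on how a zero is treated, and its adjusted p was 0.104 in edgeR and 0.000343 in DESeq2.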

How the data were processed

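The authors deposited raw counts per gene for 16 muscle libraries (poly(A) RNA, stranded kit), without normalization; 0 columns were left unused. STAR 2.7.2b is named in the submitters' processing notes; the counting strand and the build used for these libraries are not given in the sources used here. Between 78.1 and 90% of counts from 1 to 20 in a library were even and counts were also tested after division by 2. The 16 germline libraries were not analysed here.

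Members were matched by WormBase symbol (43693 of 46748 genes had one) on the Ensembl annotation of WBcel235. The members, lists and named genes were chosen with earlier results of these data known. Named were the 6 highest members per family (CPM per kb), members called in total RNA (here, without dimt-1 replicate 3, as none was called with it), the 5 largest and 5 lowest log2 fold changes and the 6 highest and 6 lowest TRAP over total RNA ratios on control RNAi among members of at least 1 CPM, and 13 studied genes. Of the members, 22 share exon bases with another annotated gene.

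Dimt-1 RNAi and control RNAi were compared in the 8 total RNA libraries, and TRAP and total RNA in all 16, with edgeR 4.0.16 (filterByExpr, TMM, glmQLFit, glmQLFTest; R 4.3.3) and Benjamini-Hochberg adjustment over all genes tested, calling an adjusted p under 0.05. Alternatives were DESeq2 1.42.0, limma 3.58.1 voom with quality weights, other scalings and filters, halved counts, a replicate block, leaving out each replicate, and floors of 10 and 200 counts. The labels name biological replicates without saying whether cultures were separate, so p-values measure the spread between these libraries. On simulated counts with 200 genes changed by a log2 of 2, edgeR recovered 90.0% of them in the total RNA comparison (14858 genes; 5.76% of calls wrong) and 66.5% in TRAP over total RNA (15096 genes; 6.34% wrong). DESeq2 recovered 93.5% and 78.5% in these comparisons, with 19.4% and 25.9% of its calls wrong. The changed genes were drawn only from well-counted genes, and no library was made to deviate from its group. Every other gene had 1 mean level over all libraries, so simulated TRAP and total RNA levels differed only in the changed genes. In the data, 15.7% of genes were called higher and 26.5% lower in TRAP on control RNAi. These rates therefore do not carry over to low counts, to smaller changes or to a library such as dimt-1 replicate 3. Nor do they carry over to the TRAP comparison, where many genes differ and the zero point depends on the scaling. Exact permutation tests used Python 3.11.15 and scipy 1.17.1.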

Additional observations from a re-analysis of the deposited data

Results flagged for a closer look

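Of 114 sets of 4 values tested (family sums, named members in total RNA and 7 members in TRAP), 8 had one library far from the other 3 by Dixon's criterion. Chance flags about 1 set in 20. No explanation was tested for any of them.

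In total RNA on dimt-1 RNAi, daf-28 was at 4.86 CPM in 1 library and at 7.91 to 8.47 CPM in the others, and nlp-1 was at 3.21 CPM against 4.85 to 5.17 CPM; both low values are those of replicate 3. In total RNA on control RNAi, flp-22 reached 17.4 CPM in 1 library, against 11.5 to 12.3 CPM in the others, flp-24 reached 24.7 against 15.5 to 16.9 CPM, flp-8 reached 13.1 against 11.8 to 11.9 CPM, and nlp-58 reached 3.89 against 1.85 to 2.05 CPM. nlp-1 was at 2.52 CPM in 1 control library and at 4.25 to 4.38 CPM in the others. In TRAP on dimt-1 RNAi, ins-27 had 7672 counts in replicate 4 and 4805 to 5282 counts in the others.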

How the results depend on the processing

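In total RNA, 0 members were called by edgeR under every other scaling, filter and floor tried, 2 with DESeq2 and 6 with limma voom with quality weights. Leaving out 1 replicate gave 0 to 12 called members, and the 12 came without dimt-1 replicate 3. For TRAP over total RNA on dimt-1 RNAi, 5 members were called in the fit reported, 36 with scaling by library size only, and 4 to 6 with 1 replicate left out. On control RNAi, 14 members were called, 51 with scaling by library size only, 9 with at least 10 counts in every library (39 members tested), 7 with a replicate block, and 11 to 16 with 1 replicate left out. For the difference between the RNAi treatments DESeq2 called 2 members, and 0 were called with any 1 replicate left out. For DESeq2 and limma voom the shares of all genes called are not given here.

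Scaling by library size only turned these log2 ratios of TRAP over total RNA negative. On dimt-1 RNAi they became −1.10 for flp-11, −1.23 for flp-14, −1.01 for flp-18, −1.39 for flp-24, −1.05 for flp-28, −1.35 for nlp-24, −1.22 for nlp-27, −1.21 for nlp-33 and −1.26 for nlp-47. On control RNAi they became −1.21 for flp-1, −1.18 for flp-14, −1.36 for flp-24, −1.20 for flp-28, −1.07 for flp-9, −0.019 for nlp-12, −0.98 for nlp-16, −1.31 for nlp-24, −0.92 for nlp-27 and −1.16 for nlp-80. These follow from the lower zero point of that scaling, under which the median of all genes moved down as well. For ins-37 the ratio on control RNAi became −6.70 without control replicate 1, the only TRAP library of that group with counts of this gene, and with 1 replicate left out it ran up to 2.45.

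The replicate numbers were not taken as pairs in the fit reported. Deviations of libraries with the same number correlated between −0.01 and 0.05 for dimt-1 with control in total RNA. For TRAP with total RNA on dimt-1 RNAi they correlated between 0.03 and 0.25, and each library correlated best with its own number. On control RNAi the values for TRAP with total RNA lay between −0.01 and 0.01. In the paper's germline experiment total RNA came from the lysate used for TRAP, so these fractions may be paired here as well. In TRAP over total RNA on control RNAi, the replicate block took away the calls of nlp-1, nlp-12, nlp-63, nlp-78, ins-22, ins-25 and ins-35 (adjusted p = 0.067 to 0.218) and added none. With the replicate block 0 members were called in total RNA, 5 for TRAP over total RNA on dimt-1 RNAi and 0 for the difference between RNAi treatments. Low counts limit the insulin-like genes most, of which 19 of 31 averaged at least 1 CPM.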

Other observations

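Of the 14 genes below the floor of 50 counts in total RNA, nlp-23 and ins-13 had more counts in TRAP than in total RNA; they were picked after their values were seen. nlp-23 had 12, 28, 196 and 56 counts in TRAP on dimt-1 RNAi and 40, 0, 20 and 80 in TRAP on control RNAi, against 8 counts in total RNA over all 8 libraries. ins-13 had 20, 0, 0 and 19 counts in TRAP on dimt-1 RNAi and 0, 85, 0 and 38 in TRAP on control RNAi, against 0 in total RNA, and it shares 87 exon bases with acdh-2 on the same strand. nlp-22 was at 0 in all 16 libraries.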
